A study of Mus musculus with 32 samples.

Results

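The regions described here were open in resident dendritic cells (DC) and nearly without calls in migratory DC, both sorted from mouse skin-draining lymph nodes. Open means that the authors' list of accessible chromatin peaks for a library held a peak there, which is a call. A region was taken when it had a call in at least 5 of 6 cDC2 libraries and at least 5 of 6 cDC1 libraries, the resident subsets, and in at most 1 of 16 migratory libraries of the floxed cohort. This gave 363 resident-only regions among 88757 regions on the autosomes, or 0.409%, and among the 33194 regions open in both resident subsets they made up 1.09%. The calls chose the regions, so the contrast between migratory and resident libraries at these 363 regions is a description and has no test.

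Omni-ATAC-seq, which marks accessible DNA by transposase insertion, was run on DC sorted from skin-draining lymph nodes, and 32 libraries were available. The study asked whether signalling through the interferon-gamma receptor IFNGR1 acts on DC maturation at the level of chromatin. The migratory subsets are migDC1, migDC2 and the one labelled DN migDC, and the resident subsets are cDC2 and cDC1. The floxed cohort carried loxP-flanked Ifngr1 alleles in every mouse: CD11cCREpos/IFNgr1flfl mice, here Cre-positive, carry Cre under the CD11c promoter, which is active in DC and in some other myeloid and lymphoid cells, and CD11cCREneg/IFNgr1flfl mice, here Cre-negative, keep the receptor. Each of migDC2, DN migDC, cDC2 and cDC1 had 3 libraries per genotype, and migDC1 had 2 per genotype. A separate germline cohort held migDC2 cells alone, with 2 libraries from Ifngr1-/- mice and 2 from WT mice. Age, sex and the number of animals per library are not in the labels, and nothing says that replicates came from separate animals, so p-values cover the spread between samples, and that spread may be technical only.

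Resident conventional DC reach the lymph node as blood-borne precursors and sample lymph there, while migratory DC mature in the skin and travel to the node through the lymphatics. On maturation DC take up less antigen and display more peptide, costimulatory molecules and the homing receptor CCR7. Open chromatin away from gene starts often marks enhancers, stretches where transcription factors such as PU.1, IRF and RUNX proteins bind and act on genes that may lie far away.

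For most of the regions the genome sequence was not used here, but 3 of them covered a whole promoter window of the RefSeq promoter table (build GRCm38.p6, the coordinates of mm10), from 250 bases before to 50 after a gene's start. These windows are shown because they give the letters of resident-only regions themselves. They belong to the lncRNA 9630025h16rik at chr3:69060612-69060911 on the plus strand, the lncRNA Gm52717 at chr4:32160854-32161153 on the minus strand and the odorant receptor gene Olfr222 at chr11:59571689-59571988 on the minus strand. Capitals mark GAGGAA, the core that PU.1 recognises, on either strand, so TTCCTC is the same core on the other strand.
9630025h16rik: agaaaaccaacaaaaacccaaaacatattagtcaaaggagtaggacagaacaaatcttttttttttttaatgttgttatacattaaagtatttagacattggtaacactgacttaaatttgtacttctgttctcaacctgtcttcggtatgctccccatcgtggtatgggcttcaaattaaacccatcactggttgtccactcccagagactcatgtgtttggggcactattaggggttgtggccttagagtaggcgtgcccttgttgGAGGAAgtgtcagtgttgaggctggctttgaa
Gm52717: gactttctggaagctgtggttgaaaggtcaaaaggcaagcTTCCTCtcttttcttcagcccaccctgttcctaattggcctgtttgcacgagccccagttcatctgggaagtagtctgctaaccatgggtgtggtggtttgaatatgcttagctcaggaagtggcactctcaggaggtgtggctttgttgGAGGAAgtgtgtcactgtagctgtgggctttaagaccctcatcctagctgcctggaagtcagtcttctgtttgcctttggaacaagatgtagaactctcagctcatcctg
Olfr222: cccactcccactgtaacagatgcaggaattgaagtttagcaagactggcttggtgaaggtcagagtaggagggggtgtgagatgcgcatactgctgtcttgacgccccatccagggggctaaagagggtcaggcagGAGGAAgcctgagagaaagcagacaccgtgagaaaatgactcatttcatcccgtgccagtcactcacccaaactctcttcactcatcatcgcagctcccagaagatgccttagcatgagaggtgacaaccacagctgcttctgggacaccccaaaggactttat
Each of the 3 windows held the core, once in 9630025h16rik and Olfr222 and in 2 places in Gm52717. Of 31396 autosomal promoter windows of the same length, 28.2% held it on either strand. The RUNX letters TGTGGT were in Gm52717 and Olfr222 and in 16.7% of all windows, and the AP-1 letters TGANTCA were in Olfr222 and in 7.84%. The 2 lncRNA windows shared an unbroken run of 16 bases around the core, ttgttgGAGGAAgtgt, on the same strand. That run occurred in 23 of the 31396 windows, 6 of which were covered by any region and 2 by a resident-only region. Of the 23, 5 were covered by a region called in at least 10 of 12 resident libraries. A region called in at least 15 of 16 migratory libraries covered 2, so the run was not particular to resident-only regions. What kind of sequence the run belongs to was not tested. The 3 regions had a call in 1 of 16 migratory libraries, in 6 of 6 cDC2 and 6 of 6 cDC1 libraries and in 0 of 4 germline libraries. Of the other motifs searched, C/EBP was in Olfr222 and in 10.9% of all windows. ISRE and ETS-IRF were in none of the 3 windows, and in 3.46% and 2.74% of all windows. A match of letters is a description and does not show that a factor binds.

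Among the 363 regions, 160 had a call in 12 of 12 resident libraries, 161 in 11 and 42 in 10. In the migratory libraries of the floxed cohort 193 of them had no call and 170 had 1. The strictest pattern, with a call in 0 of 16 migratory and in 12 of 12 resident libraries, was met by 79 regions. Over all regions tested, 15.2% were called less often and 25.0% more often in migratory than in resident libraries (exact conditional test, Benjamini-Hochberg over 60232 regions), and nothing is read from the 363 against that background, since the rule used this contrast. With lists cut to equal length the larger side of that background turned, to 11514 regions less often and 9695 more often called, against 9157 and 15057 with all peaks, and with plain-titled libraries alone 1073 were called less often and 9562 more often. The rule has sharp edges. Just outside it, 177 regions had 2 migratory calls, and 334 had enough calls but for exactly 4 of 6 in 1 resident subset, which was cDC2 for 252 and cDC1 for 82.

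The calls per library show where the few migratory peaks came from. Of the 363 regions, migDC1 had calls at 6 and 2 in the Cre-positive libraries and at 1 and 1 in the Cre-negative libraries. The migDC2 libraries had 4, 3 and 16 (Cre-positive) and 4, 3 and 32 (Cre-negative). The DN migDC libraries had 53, 3 and 5 (Cre-positive) and 4, 5 and 28 (Cre-negative). Most migratory calls thus sat in a few libraries, and the 3 with the most calls, at 53, 32 and 28 regions, were also the 3 with the longest peak lists of the series, at 73627, 72986 and 69935 peaks. The cDC2 libraries had calls at 360, 303 and 362 regions (Cre-positive) and 362, 362 and 287 (Cre-negative), and the cDC1 libraries at 361, 330 and 357 (Cre-positive) and 360, 304 and 363 (Cre-negative). The 2 cDC2 libraries with the fewest calls, 303 and 287, had the shortest lists of the floxed cohort, at 38633 and 37812 peaks. The cDC1 Cre-negative 2 library, with 304 calls, had a list of 64816 peaks, but its peaks called only 52366 regions. The part of list length in the calls was not tested as a cause. Keeping the same number of strongest peaks, 37812, in every floxed list can only remove calls, so the low migratory counts it gives are set by the rule. The 363 regions then had a call at 1 region in DN migDC Cre-positive 1 and at 0 in the other 15 migratory libraries, against 266 to 296 regions in cDC2 and 159 to 260 in cDC1 libraries.

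**Figure D1:**
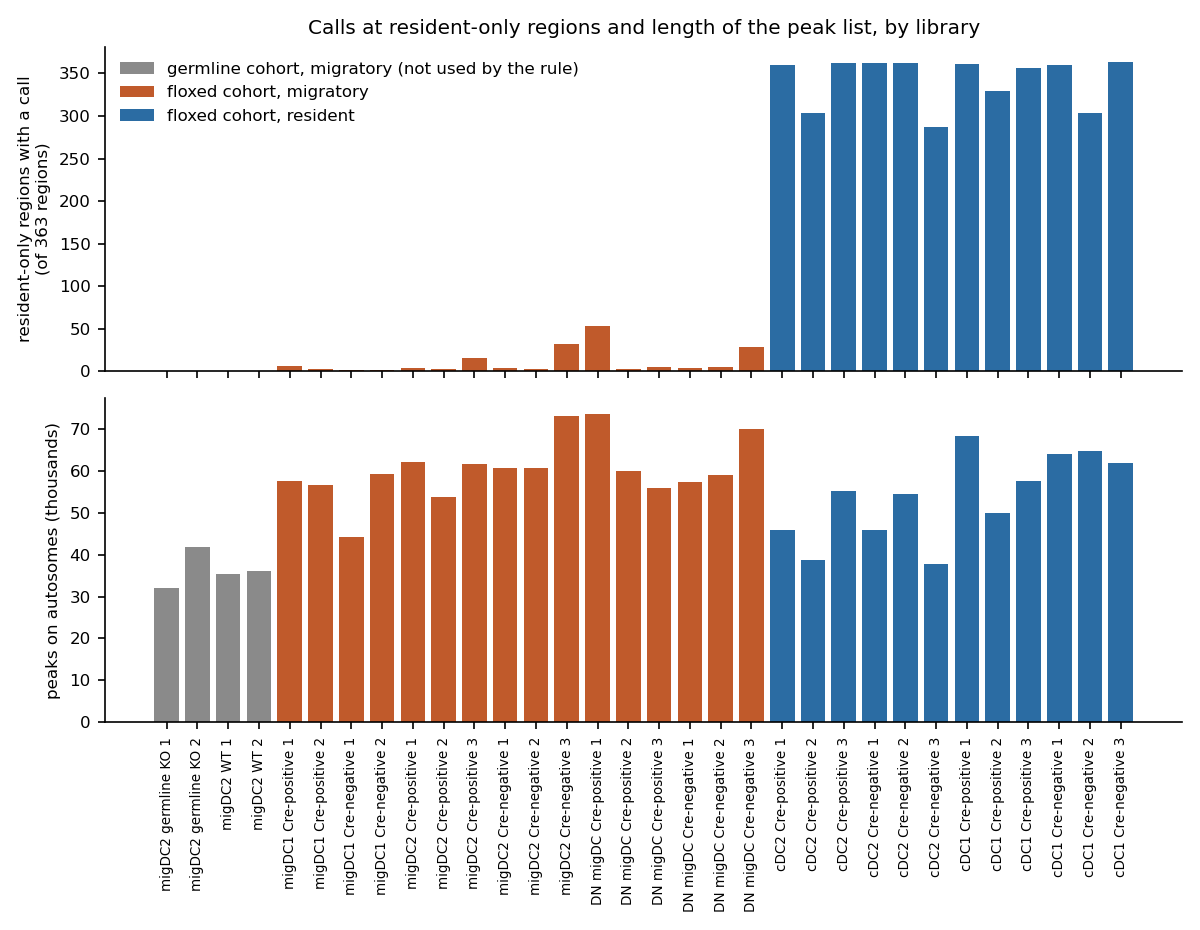
The upper bars give, for each library, how many of the 363 resident-only regions had a call, and the lower bars give the number of autosomal peaks in its list. Migratory libraries (grey and orange) reach at most 53 regions and resident libraries (blue) at least 287, while the list lengths overlap.

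The peaks at these regions were of middling or low rank. Each peak's deposited signal was ranked within its own list, from 0 for the weakest to 100 for the strongest, and this percentile is not compared between lists of different length. In resident libraries the median percentile at the resident-only regions lay between 18.5 and 53.7 by library, against 62.9 to 78.9 at the 27106 regions shared by resident and migratory libraries. Over the 363 regions the median of the medians, each over the 10 to 12 resident libraries with a call, was 39.8, with a range of 11.0 to 92.5, and 93 regions exceeded 50 and 5 exceeded 75. This rank was not particular to the resident-only regions. Their median resident percentile was 40.6 for those with 0 migratory calls and 39.1 for those with 1. Other regions open in both resident subsets had 38.7 at 2 migratory calls, 40.5 at 7, 43.6 at 12 and 48.8 at 15. Only those with 16 calls stood clearly higher, at 74.6. By library, the median percentile of the migratory calls was between 0.438 and 18.6. Over all 170 migratory calls the median percentile was 9.13 and the range 0.0178 to 60.5, with 1 of them above 50.

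The germline cohort was not used by the rule. None of the 363 regions had a call in any of its libraries, neither in 2 Ifngr1-/- nor in 2 WT migDC2 libraries. This look-up separated the regions poorly from regions just outside the rule. The germline lists held 32088 to 41759 peaks, and the part of their length was not tested. Resident-open regions with 2 migratory calls were called at 0% in all 4 germline libraries as well, and those with 3 calls at 0.216% on average. The share reached 19.5% for regions with 12 migratory calls, 52.7% for those with 15 and 93.9% for those with 16. A germline list without a peak therefore does not set the resident-only regions apart from resident-open regions with a few more migratory calls.

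**Figure D2:**
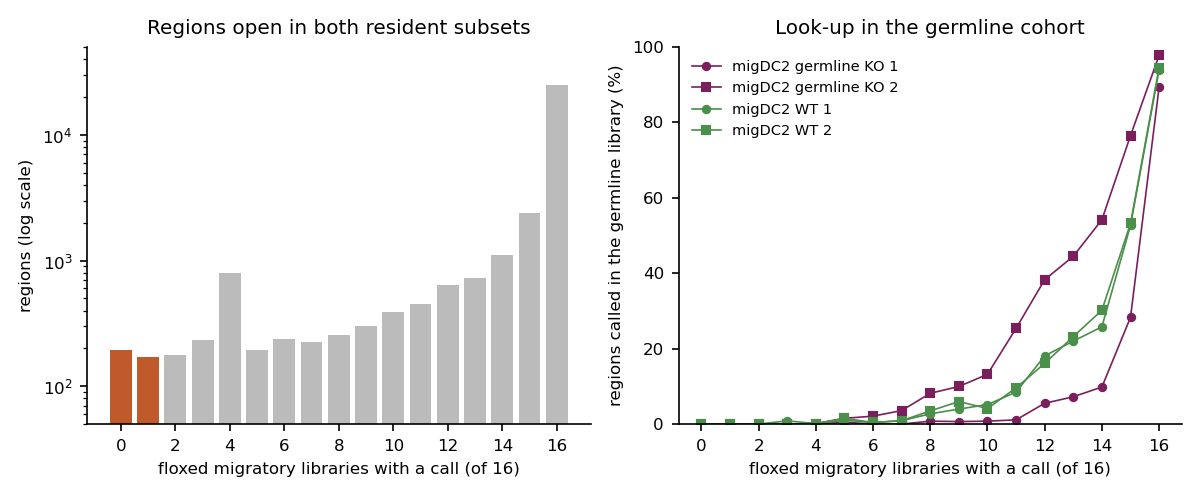
Left, the number of regions open in both resident subsets (log axis) by the number of floxed migratory libraries with a call, with the resident-only regions in orange at 0 and 1. Right, the percent of those regions with a call in each germline migDC2 library, which is 0 at the resident-only regions and averages 93.9% where all 16 floxed migratory libraries had a call.

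The counts by number of migratory calls have a step at 4 calls, where 791 regions fall. For 619 of these the 4 libraries were exactly the 4 migratory ones whose titles are a plain number, like the titles of all resident libraries, while the other 12 have titles with a letter. What the letter stands for is not in the labels. Applied to plain-titled libraries alone, with no migratory call allowed, the rule gave 539 regions, of which 298 were among the 363. In the 12 lettered libraries, which this version does not use, those 539 regions were called at 1.86% to 39.9%, with a median of 10.1%, against 76.9% to 95.4% for all regions open in both resident subsets. The highest, 215 of 539 regions, was migDC2 Cre-negative 3, and 35 of the 539 had calls in at least 6 of the 12 lettered libraries. Whether title form marks a batch was not tested.

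Resident-only regions lay away from gene starts. Only 8 of 363, or 2.20%, were within 1000 bp of the start of a protein-coding gene (of either gene end where the tables give no strand), while 53.2% lay in a gene body, 33.1% within 50000 bp of a gene and 11.6% farther away. Of the 27106 shared regions 38.1% were at a gene start, of 5070 migratory-only regions 3.71%, and of all regions 15.9%. The resident-only regions had a median width of 612 bp, against 1172 bp for shared, 637 bp for migratory-only and 570 bp for all regions. They were thus narrower than shared regions but not than regions in general. The median distance from a resident-only region to the nearest other one was 1170232 bp, and 22 of the 363 had another within 10000 bp. In the larger sets it was 42219 bp for migratory-only and 8307 bp for shared regions. This distance depends on the size of the set, so neither scatter nor clustering is read from it. The 8 at gene starts were assigned to Epha2, Klk1b11, Olfr222 and Papln, with a known strand, and, among others, to Xpo4, Sik1 and Carns1, where the end could be either one. Genes were assigned by position alone, so the gene that a region regulates may be another one.

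The rule leaves little room for a difference between genotypes at these regions. A mean of 346 ± 24.1 regions had a call in Cre-positive and 340 ± 34.6 in Cre-negative resident libraries (SD, n = 6 each), and 11.5 ± 17.3 in Cre-positive and 9.75 ± 12.6 in Cre-negative migratory libraries (SD, n = 8 each). The groups overlapped in both cases. Of 60232 regions tested, 0 passed in either direction (0% called, exact conditional test with Benjamini-Hochberg adjustment), and 151 had an unadjusted p under 0.05. All 363 resident-only regions were among those tested, but with at most 1 missing call per resident subset and at most 1 migratory call none of them could pass, and their smallest unadjusted exact p was 0.250. The test therefore says nothing about the genotypes at these regions. The floxed part of Ifngr1 is not given in the sources used here, so the lists give no check of the deletion.

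The labels of the cell types can be set beside listed marker genes. The lists were chosen with earlier results of these data known, so this is not an independent check. In the comparison of cDC2 with cDC1, in which 2.18% of 30763 tested regions had more calls and 13.5% fewer calls in cDC2 by the test, 62 of 193 regions of cDC1 genes were called less often in cDC2 and 0 more often, by the exact conditional test. Of 119 regions of cDC2 genes, 19 were called more often and 8 less often. Of the 505 tested regions at genes of DC maturation and migration that are not resident-only, 262 (51.9%) were called more often in migratory libraries and 23 (4.55%) less often. In bulk samples, fewer cells of a type and less open chromatin per cell cannot be told apart.

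Cd86 had the most resident-only regions of any gene, 3. It encodes a ligand for CD28 and CTLA-4 on T cells, and its protein rises when DC mature. The 3 regions lay in its gene body (gene at chr16:36568956-36666158), spread over 24979 bp, and were the only ones of the list of DC maturation and migration, at 0.432% of its 694 regions, against 0.409% of all regions. The region at chr16:36594827-36596874 had a call in 1 of 16 migratory and 12 of 12 resident libraries. Its peak stood at percentiles of 17.0, 50.9 and 95.6 (lowest, median, highest) in cDC2 and 23.9, 43.1 and 72.4 in cDC1 libraries, while in its 1 migratory library, migDC2 Cre-positive 2, it stood at 3.52. The region at chr16:36589668-36590354 had a call in 1 of 16 migratory and 11 of 12 resident libraries, and its migratory call, at percentile 1.03, was in the same migDC2 library. That library had calls at only 3 of the 363 regions, and 2 of the 3 were these. The region at chr16:36613961-36616019 had a call in 0 of 16 migratory and 11 of 12 resident libraries.

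Much of the rest of Cd86 had calls in migratory libraries too. Both regions at the upper end of the gene had calls in 16 of 16 migratory libraries, and of 16 other tested regions 4 were called less often and 1 more often in migratory libraries. One of the 4, at chr16:36599763-36601143, had no migratory call and a call in 10 of 12 resident libraries (exact conditional test, adjusted p = 9.48e-05) and missed the rule by having 4 of 6 cDC2 calls. At chr16:36596980-36599204, the next region beside the first of the 3, all 16 migratory and all 12 resident libraries had a call. Regions with and without calls in migratory libraries thus alternated within a few kilobases.

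**Figure D3:**
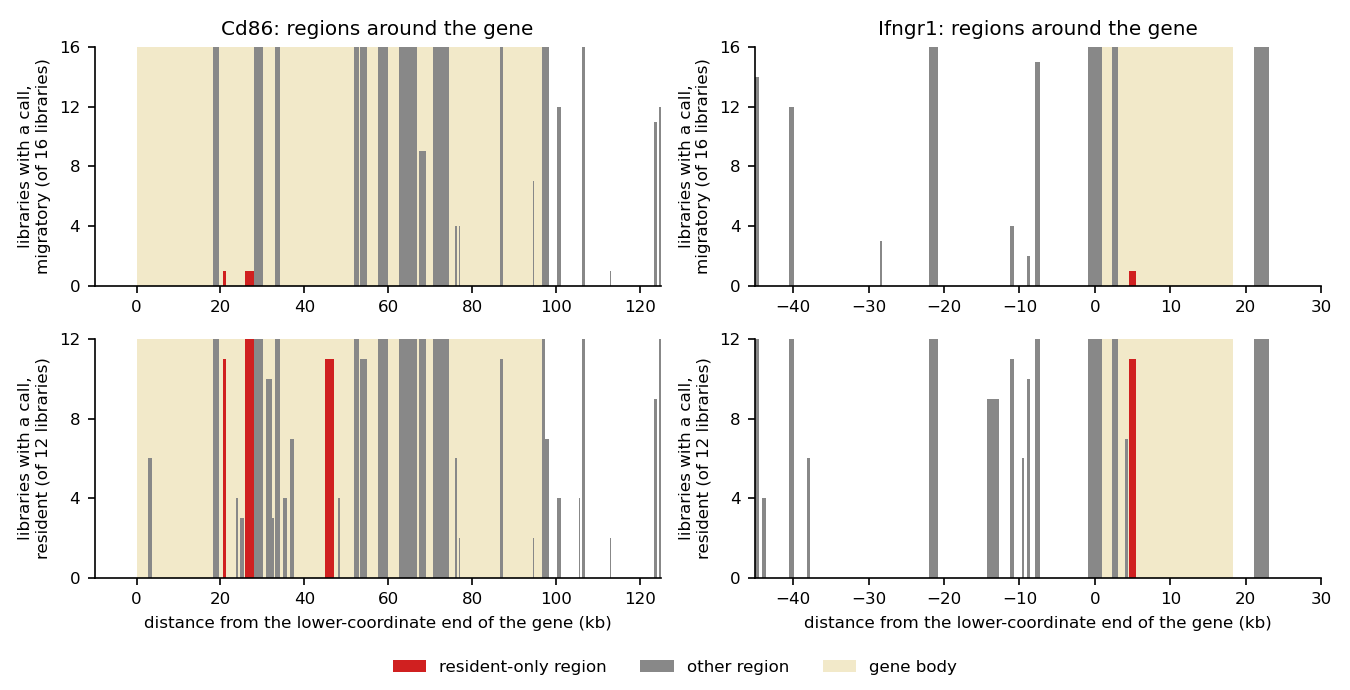
Bars are regions drawn to their width, by distance in kb from the lower-coordinate end of Cd86 and Ifngr1, with height giving the migratory (top) and resident (bottom) libraries with a call. The red resident-only regions reach 11 or 12 of 12 resident and 0 or 1 of 16 migratory libraries. Of the grey regions near them, some had a call in all 12 resident and 16 migratory libraries and others had no migratory call.

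Interferon-gamma sensing had 1 region. Ifngr1, the ligand-binding chain of the receptor and the gene deleted in this study, had a resident-only region in its gene body at chr10:19596481-19597430. It had a call in 1 of 16 migratory libraries, at percentile 7.12 in DN migDC Cre-positive 2, and in 11 of 12 resident libraries, all but cDC1 Cre-negative 2. Its percentiles were 20.8, 49.1 and 59.8 (lowest, median, highest) in cDC2 and 39.9, 51.9 and 54.1 in cDC1 libraries. All 6 Cre-positive resident libraries therefore held the peak. Of 9 other tested regions of the gene, 6 were called less often and 0 more often in migratory libraries by the exact conditional test. Several of the 6 were peaks mainly of cDC1. The regions at chr10:19553857-19554243 and chr10:19582237-19582546 had calls in 0 of 6 cDC2 and 6 of 6 cDC1 libraries. At chr10:19595958-19596374 the counts were 1 of 6 and 6 of 6. The region at chr10:19577609-19579183, upstream of the gene, had a call in none of the 16 migratory libraries but in 9 of 12 resident ones (exact conditional test, adjusted p = 3.55e-04). The gene's start had a call in all 16 migratory and all 12 resident libraries. Of the 15 genes listed for the pathway, Ifngr1 alone held a resident-only region, which is 0.541% of the list's 185 regions, near the 0.409% of all regions. Over the list 11 of 115 other tested regions (9.57%) were called less often and 39 (33.9%) more often in migratory libraries.

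Receptors for uptake of antigen and immune complexes held 3 resident-only regions at 3 genes of a list of 52, which is 0.867% of the list's 346 regions, against 0.409% of all regions. Clec9a encodes the cDC1 receptor for actin exposed on dead cells, and its region at chr6:129421004-129421795 had a call in 0 of 16 migratory and 12 of 12 resident libraries. The percentiles were 17.2, 40.8 and 50.2 (lowest, median, highest) in cDC2 and 63.3, 72.9 and 75.4 in cDC1 libraries. Both subsets thus held a peak at a gene that marks one of them. Fcgr2b encodes the inhibitory receptor for IgG and Fcgr3 an activating one. The Fcgr2b region had a call in 1 of 16 migratory and 12 of 12 resident libraries, and the Fcgr3 region in 1 of 16 and 11 of 12. At Fcgr3, 6 of 9 other tested regions were called less often and 0 more often in migratory libraries, and at Fcgr2b 1 of 5 less often and 1 more often. Over the whole list 40 of 233 other tested regions (17.2%) were called less often, near the 15.2% of all regions.

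Receptors for chemokines held 4 resident-only regions at 4 of 35 listed genes. This was 1.61% of the list's 249 regions, against 0.409% of all regions, but it rests on 4 regions. Xcr1, the cDC1 receptor for XCL1, had a region at chr9:123858888-123859544 with a call in 0 of 16 migratory and 12 of 12 resident libraries. The percentiles were 12.8, 18.5 and 27.4 (lowest, median, highest) in cDC2 and 13.3, 66.6 and 74.0 in cDC1 libraries. Neither of its 2 other tested regions passed. Xcr1 and Clec9a were the 2 genes of the cDC1 list with a resident-only region, and 71 of the 273 other tested regions of that list (26.0%) were called less often and 44 (16.1%) more often in migratory libraries. Ccr1, a receptor for inflammatory chemokines, had 1 region with a call in 1 of 16 migratory and 12 of 12 resident libraries. Cxcr2, the receptor for neutrophil-attracting chemokines, had a region with a call in 0 of 16 migratory and 12 of 12 resident libraries and no other region assigned. Across the list 29 of 159 other tested regions (18.2%) were called less often and 32 (20.1%) more often in migratory libraries, beside 15.2% and 25.0% of all tested regions.

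Transcription factors of DC held 5 resident-only regions at 4 of 54 genes, or 0.524% of the list's 955 regions, near the 0.409% of all regions. Spi1 encodes PU.1, and its region in the gene body at chr2:91092677-91093152 had a call in 0 of 16 migratory and 11 of 12 resident libraries. Its percentiles were low, at 8.71, 31.4 and 42.7 (lowest, median, highest) in cDC2 and 10.9, 22.8 and 30.5 in cDC1 libraries. Of 5 other tested Spi1 regions 1 was called less often and 3 more often in migratory libraries. Bcl11a, a regulator of lymphoid and plasmacytoid DC development, had a region with a call in 0 of 16 migratory and 12 of 12 resident libraries, and Runx1 one with 1 of 16 and 12 of 12. Nr4a1 encodes NUR77, an orphan nuclear receptor induced early by stimulation. Its wide region of 5656 bp at chr15:101269046-101274701 covered the 3′ part of the gene and had a call in 0 of 16 migratory and 12 of 12 resident libraries. The percentiles were 18.1, 73.3 and 99.8 (lowest, median, highest) in cDC2 and 32.7, 47.7 and 81.2 in cDC1 libraries. Its neighbours on both sides, at chr15:101265637-101268917 and chr15:101274916-101278321, had calls in 16 and 14 of 16 migratory libraries and in all 12 resident ones. The second Nr4a1 region, 605 bp wide, had a call in 0 of 16 migratory and 11 of 12 resident libraries. Over this list 65 of 633 other tested regions (10.3%) were called less often and 172 (27.2%) more often in migratory libraries, beside 15.2% and 25.0% of all tested regions.

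The lists of MHC class II, MHC class I and pattern recognition genes held 1 resident-only region each, or 0.538% of 186, 1.12% of 89 and 0.495% of 202 regions, beside 0.409% of all regions. H2-Ab1, the beta chain of the MHC class II molecule I-A, had 1 region with a call in 0 of 16 migratory and 11 of 12 resident libraries, and H2-Q6, a class I gene of the Qa-2 family, had 1 with the same counts. Reads of near-identical H2-Q genes can be split between copies, so the H2-Q6 region is uncertain, and its median percentile of 11.0 was the lowest of all 363. Ticam2 encodes TRAM, which links TLR4 to type I interferon, and had a region with a call in 0 of 16 migratory and 12 of 12 resident libraries. No gene of the Notch list, the growth factor receptor list or the lists of T cell, B cell, monocyte and macrophage, or plasmacytoid DC markers held a resident-only region. These lists had between 81 and 255 regions each. With 0.409% of all regions resident-only, 0 in a list of that size is near the share of all regions and says little about its genes.

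After Cd86, 17 genes had 2 resident-only regions each, among them Nr4a1 above. Pik3ap1 encodes BCAP, an adaptor that ties immune receptors to PI3K. Its region at chr19:41274366-41275223 had a call in 0 of 16 migratory and 12 of 12 resident libraries, with percentiles of 18.5, 32.3 and 45.3 (lowest, median, highest) in cDC2 and 68.7, 72.3 and 75.2 in cDC1 libraries. The other, at chr19:41334221-41334814, had a call in 1 of 16 migratory and 12 of 12 resident libraries. Pik3ap1 had 20 other tested regions, of which 8 were called less often in migratory libraries and 0 more often, and several of the 8 were peaks of cDC1 alone, such as chr19:41278260-41279066, with 0 of 16 migratory, 0 of 6 cDC2 and 6 of 6 cDC1 libraries (exact conditional test, adjusted p = 0.0106). Sik1, a salt-inducible kinase, had 2 regions, each with a call in 0 of 16 migratory and 12 of 12 resident libraries, and 7 of its 18 other tested regions were called less often and 2 more often. Prkce (protein kinase C epsilon), Lrrk2 (a kinase mutated in familial Parkinson disease), Kpna4 (an importin), Arih2 and Klhl2 (parts of ubiquitin ligases), Gask1b and Rtn2 (a reticulon) had 2 each, and so had Picalm, described next, and Snx29, Specc1, Stxbp2, Tgm2, Tnks and Zfp521, which the rule for named genes did not take and which are given only to complete the count. The promoter window of 9630025h16rik lies in one of the 2 regions assigned to Kpna4, and the nearest end of Kpna4 is over 10000 bp away.

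The strongest regions were chosen by the median percentile over the resident libraries among those with a call in 12 of 12 resident, 0 of 16 migratory and 0 of 4 germline libraries. The first was at Mrps31 (a protein of the mitochondrial ribosome), with percentiles of 14.6, 62.2 and 72.1 (lowest, median, highest) in cDC2 and 86.4, 89.3 and 95.9 in cDC1 libraries. Picalm, a clathrin assembly protein of endocytosis, had a pair of neighbouring wide regions just past 1 end of the gene (gene at chr7:90130192-90209447), at chr7:90209584-90211628 and chr7:90211766-90217598. The second stood at 4.07, 39.9 and 86.7 in cDC2 and 62.7, 79.0 and 96.5 in cDC1 libraries. The region in the body of Pfkp, the platelet form of the glycolytic enzyme phosphofructokinase, was the widest of all at 7221 bp, at chr13:6605714-6612934. Sytl3 (an effector of the vesicle GTPase RAB27), Cers4 (a ceramide synthase), Cyth4 (an activator of ARF GTPases) and Mamdc2 had 1 each, and the other 2, at chr6:31145635-31148133 and chr13:19920926-19921811, had no gene within 50000 bp. At Cyth4 all 6 other tested regions were called less often in migratory libraries. The lists of cDC1 and cDC2 differ in length, so a difference in percentile between the subsets is not read as a change.

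**Figure D4:**
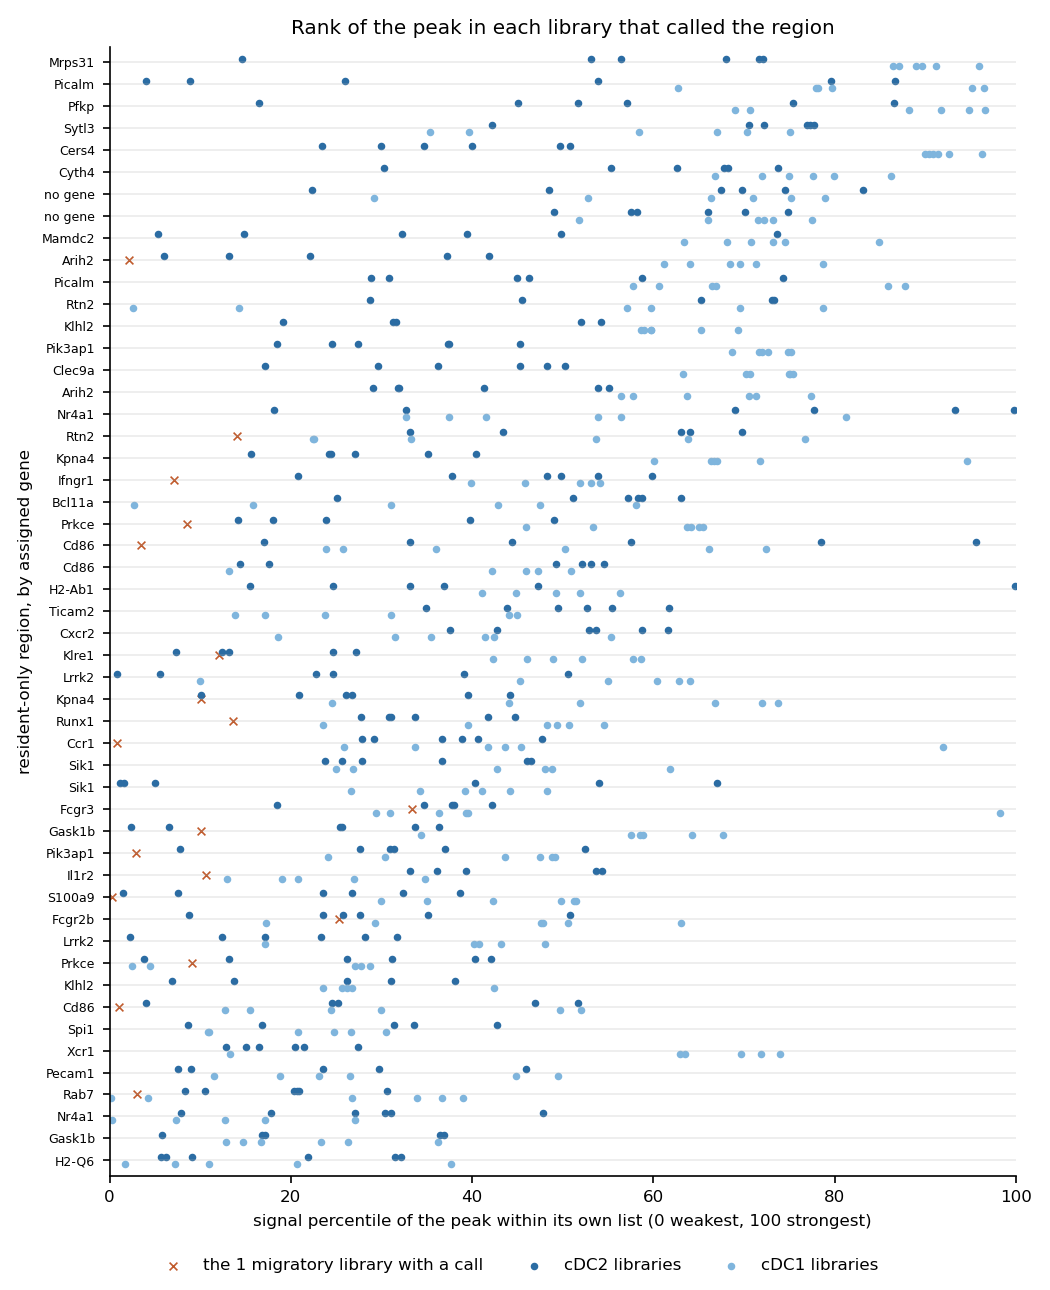
Each row is a named resident-only region and each dot the percentile of its peak in 1 library that called it, with an orange cross for the 1 migratory library with a call, dark blue for cDC2 and light blue for cDC1. The crosses lie between 0.290 and 33.4, and rows run from a median resident percentile of 11.0 at H2-Q6 to 79.3 at Mrps31.

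Some resident-only regions were at markers of cells other than DC. Cxcr2 and S100a9 are on the list of neutrophil markers (2 of 43 regions of that list, 4.65%), Klre1 on that of NK cells and ILC (1 of 71, 1.41%) and Pecam1 on that of stromal and epithelial cells (1 of 99, 1.01%), each share above the 0.409% of all regions but resting on 1 or 2 regions. The other tested regions of these lists did not lean towards resident cells. In migratory libraries 9 of 31 of the neutrophil list were called more often and 4 less often. For NK cells and ILC the counts were 14 and 5 of 50, and for stromal and epithelial cells 23 and 5 of 82. At S100a9 2 of 2 were called more often, and at Klre1 1 of 5 less often. Il1r2, a decoy receptor for IL-1, was the 1 gene of the cDC2 list. Of its 15 other tested regions, 9 were called less often and 2 more often in migratory libraries. Rab7, a GTPase of late endosomes, was the 1 gene of the ubiquitously active list. In all, 26 of the 363 regions were at 22 genes of 15 of the 21 lists. What part other cell types had in these calls was not tested.

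The genes with a resident-only region were open elsewhere in migratory cells. There were 302 such genes, and 225 of the 252 with a region at a start (89.3%) had it called in at least 15 of 16 migratory libraries, against 84.9% of 11779 genes without a resident-only region. At least 10 of 12 resident libraries called it at 95.2% of these 252 genes and at 86.3% of the 11779. By number of regions per gene the order of the migratory shares varied. They were 66.7% against 82.2% at 1 to 2 regions and 87.2% against 84.6% at 3 to 5. At 6 to 10 regions they were 86.2% against 87.2%, and at more than 10 regions 93.1% against 89.6%. The other regions of the genes with a resident-only region leaned towards resident cells. Of 2435 tested, 525 (21.6%) were called less often in migratory libraries and 437 (17.9%) more often. Of 50701 regions at the other genes, 14.1% were called less often and 25.2% more often. The genes were chosen by this contrast in the same libraries, so the lean is a description and not independent of the rule. The genes had more regions each, with a median of 10 against 3. Among genes with 6 to 10 regions, 20.9% of the other regions at the genes with a resident-only region were called less often, against 14.6% at the others. A migratory-only region was found at 29.1% of the genes with a resident-only region, against 18.2% of the others, but the order turned within classes of region number: 0% against 4.46% at 1 to 2 regions, 6.56% against 15.8% at 3 to 5, 13.9% against 30.7% at 6 to 10 and 51.4% against 57.9% at more than 10.

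The lean was also local. Within 2000 bp of a resident-only region 38 of 108 tested regions (35.2%) were called less often in migratory libraries and 6 (5.56%) more often. Between 5000 and 10000 bp the shares were 29.7% less often and 12.5% more often, and between 20000 and 50000 bp 22.3% and 17.9%. Farther than 500000 bp 14.1% were called less often and 26.1% more often. Regions close by may be parts of 1 peak that the consensus cut, so the nearest distances are not independent of the rule. At every distance the contrast was that of the rule, in the same libraries. Of the 363 regions 12 (3.31%) had a migratory-only region within 10000 bp.

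**Figure D5:**
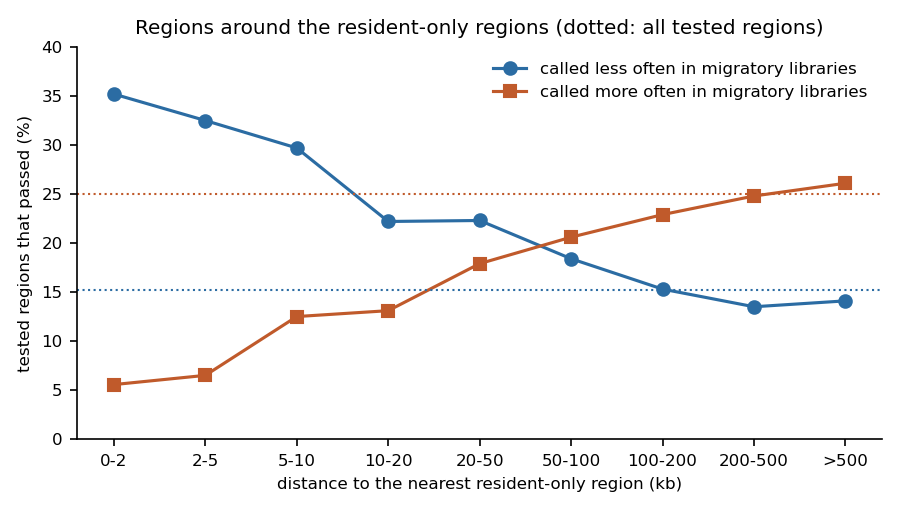
Percent of tested regions, other than the resident-only ones, called less often (blue) or more often (orange) in migratory than in resident libraries, by distance in kb to the nearest resident-only region, with dotted lines at 15.2% and 25.0% for all tested regions. The blue line is at 35.2% within 2 kb and at 14.1% in the farthest class, and the orange line is at 5.56% and 26.1%.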

How the data were processed

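Omni-ATAC-seq peak lists of 32 libraries of mouse DC were used, 1 list per library, so replicates were not pooled. The authors called the peaks; the submitters' processing notes name Bowtie2, deepTools and Genrich and the build mm10, and no version, setting or shift for the transposase offset is given in the sources used here. Each peak's deposited signal, never under 200, was used to rank peaks within a list, and the deposited −log10 p-value to order ties. The lists hold no counts, so depth per library is unknown and no counting interval can be given.

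A region is a stretch on chromosomes 1 to 19, 100 bp or longer, under peaks of at least 3 lists. A library had a call where the overlap of a peak with it came to 50% of either or more. Shared regions had the same resident calls and at least 15 of 16 migratory calls. Migratory-only regions had calls in at least 3 of 4 migDC1, 5 of 6 migDC2 and 5 of 6 DN migDC and in at most 1 of 12 resident libraries.

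Genes are protein-coding genes of the RefSeq tables for GRCm38.p6. Of 20665 autosomal genes 16457 (79.6%) had a stranded start, and both ends served for the others. A region went to a gene start within 1000 bp, else to the shortest gene body with its midpoint, else to the nearest gene within 50000 bp.

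Regions with at least 3 calls and 3 missing calls were tested by a two-sided exact conditional test on the number of libraries with a call (stratified by genotype for cell types and by cell type for genotype), adjusted by the Benjamini-Hochberg method at 0.05 over all tested regions, in Python 3.11.15 with numpy 2.4.6 and scipy 1.17.1. The test and the rule were tested on simulated calls. Germline libraries were looked up, not tested. Groups came from the labels, and replicate numbers were given in accession order.

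Named genes are up to 12 with the most resident-only regions, up to 4 per list, the 10 regions with the highest median percentile among those with 12 of 12 resident and no other call, and Ifngr1; 1 gene that this takes in is not reported here. The regions and the gene lists were chosen with earlier results of these data known. Alternatives changed the overlap, the consensus, the peaks kept, the thresholds and the libraries. A search for motifs over all resident-only regions was planned but needs a genome, which was not used here.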

Additional observations from a re-analysis of the deposited data

How the results depend on the processing

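How many regions the rule finds depends on its thresholds and on the peaks kept. There were 79 under the strictest thresholds, 1042 under looser ones (4 of 6, 4 of 6 and at most 2 of 16) and 1311 at equal list length, where 134 of the 363 regions were found again; with the strongest 75% of each list there were 353, but only 89 of the 363 were found again. Leaving out 1 library gave 364 to 592, with 580 without cDC2 Cre-positive 2 and 592 without cDC2 Cre-negative 3. Calls in germline libraries were 2.02% at equal length, 0.0960% under looser thresholds, 0.232% with plain-titled libraries and 0 to 0.129% leaving out 1 library. The share at a gene start was 5.10% with the strongest 75%, 5.87% at equal length and 1.91% to 3.28% leaving out 1 library.

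For migratory minus resident, equal length gave 9695 regions more often and 11514 less often called, against 15057 and 9157, so the larger side turned; plain-titled libraries gave 9562 and 1073. Leaving out 1 library gave 13982 to 15646 more often and 6889 to 11983 less often. For cDC2 minus cDC1, equal length gave 3576 more often called; leaving out 1 library gave 675 to 1489 more often and 4163 to 10998 less often, with 10998 without cDC1 Cre-positive 2 and 10383 without cDC1 Cre-negative 2. Why was not tested, beyond what the construction of each alternative gives. The contrast of genotypes gave 0 regions under each alternative run. No paired analysis was possible because the replicate numbers were given in accession order and pair nothing. A missing call can be a closed region or one under the threshold of a short list, which peak lists of unknown depth cannot tell apart.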
